A study of Mus musculus with 18 samples.

Results

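The genes described are the mouse ligands and receptors of axon guidance: the semaphorins of classes 3 to 7 and their plexin receptors, the Slits and their Robo receptors, the netrins and Dcc, and the ephrins and their Eph receptors. The rule used their gene names and a minimum level, and no comparison between groups, though the set was chosen with earlier results of these data known. Of the 54279 rows of each expression table, 66 had such a name, and a row was kept where its mean over the libraries of a table was at least 1 CPM (the share of a library's counts that falls on a gene, scaled to a fixed total). This left 47 genes, 45 in each table and 43 in both. Efna1 and Epha2 were kept in the drug table alone, and Dcc and Sema4d in the untreated table alone. The other 19 rows were kept in neither, among them Efna5, Efnb2, Plxnd1, Robo3, Robo4 and 3 antisense genes of Plxna4. The rows just inside the minimum were Efnb3 at 2.04 CPM and Efna1 at 1.11 CPM in the drug table, and Dcc at 1.32 CPM and Sema3b at 1.01 CPM in the untreated table. Just outside it stood Sema4d at 0.890 CPM and Sema3e at 0.823 CPM in the drug table, and Epha2 at 0.748 CPM and Efna1 at 0.590 CPM in the untreated table.

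RNA was sequenced from oligodendrocyte progenitor cells (OPCs), the cells that give rise to myelinating oligodendrocytes, derived from mouse epiblast stem cells. In one experiment CRISPR-Vhl cells were set beside CRISPR-Control cells, both untreated. In another, CRISPR-Vhl and CRISPR-Control cells each received 300 nM AZD8330, which inhibits the MEK kinases, or DMSO, the solvent, for 14 hours. All 6 groups were grown with Fgf2 and Pdgfa, had 3 libraries lettered A to C, and are called Vhl and control cells here. The labels do not say which part of Vhl was edited, whether a line was 1 clone, or whether the libraries came from separate cultures, so a p-value measures the spread between these libraries, which may be technical.

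Guidance cues are secreted or membrane-bound proteins that attract or repel a moving cell or axon tip through receptors on its surface. Slits act through Robos, semaphorins mostly through plexins, with neuropilins as co-receptors for class 3, netrins through Dcc, Neo1 and the Unc5 proteins, and ephrins through Eph receptor kinases. In the oligodendrocyte lineage, netrin 1 and class 3 semaphorins are known to steer migrating progenitors. Vhl encodes the protein that marks hypoxia-inducible factors (HIFs) for degradation, and MEK relays growth factor signals to the kinase ERK.

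Each library held between 12391077 and 21160250 estimated counts. Vhl mRNA, the targeted gene, had 103, 104 and 91.8 CPM in Vhl cells with AZD8330 against 139, 136 and 138 CPM in control cells with AZD8330. With DMSO it had 89.8, 93.0 and 93.8 CPM in Vhl cells against 108, 107 and 102 CPM in control cells, and untreated 87.1, 90.0 and 73.9 CPM in Vhl cells against 117, 121 and 125 CPM in control cells. It was lower in Vhl cells each time without overlap, and passed the test in the drug table (log2 change -0.46 with AZD8330 and -0.20 with DMSO, edgeR adjusted p = 1.01e-05 and 0.00781) but not untreated (-0.53, edgeR adjusted p = 0.357). The HIF targets Bnip3, Slc2a1 and Vegfa rose in Vhl cells with either medium. The ERK targets Dusp6, Etv4 and Spry4 fell with AZD8330 in both genotypes, and Etv5 passed as lower in control cells only. With AZD8330, Dusp6, Etv4 and Spry4 were higher in Vhl than in control cells. Summed with Etv5 they had 77.2 to 87.3 CPM in Vhl cells against 50.5 to 55.1 CPM in control cells. With DMSO these sums were 790 to 810 CPM and 792 to 818 CPM. The untreated libraries scattered more, with a common dispersion of 0.144 against 0.0161 in the drug table, and both of the libraries lettered A stood apart from B and C. Markers of OPCs summed to between 8244 and 13940 CPM in every group, with none of the 10 at 0, and microglial markers to at most 1.71 CPM.

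Per length, the most abundant of the genes were a receptor and a ligand of different families. In control cells with DMSO, Plxnb2, a plexin for class 4 semaphorins, had 166.0 CPM per kb of its longest transcript and Ntn1, the secreted cue netrin 1, had 135.5 CPM per kb, against 34.5 CPM per kb for Ntn4, the next. Sema4b at 23.4, Plxna1 at 22.0, Sema6d at 21.3 and Robo1 at 19.4 CPM per kb followed, and the libraries of Plxna1, Sema6d and Robo1 overlapped with those of their neighbour in this order. With AZD8330 the order of the leading pair was the other way round: Ntn1 had 159.3 CPM per kb and Plxnb2 127.5 CPM per kb in Vhl cells, and Ntn1 had 157.5 CPM per kb and Plxnb2 118.3 CPM per kb in control cells. In the untreated table Plxnb2 at 178.9 CPM per kb led in Vhl cells and Ntn1 at 187.7 CPM per kb in control cells, with overlap between the pair in each. Dcc, the classical attractive netrin receptor, was kept in the untreated table through 1 library: it had 0.370, 0 and 0 CPM in untreated Vhl cells against 7.37, 0 and 0.456 CPM in untreated control cells. Dcc was near 0 in the other 5 libraries. Neo1, another netrin receptor, averaged 505 ± 93.5 CPM in untreated Vhl cells and 738 ± 12.5 CPM in untreated control cells (SD, n = 3 each).

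**Figure D1:**
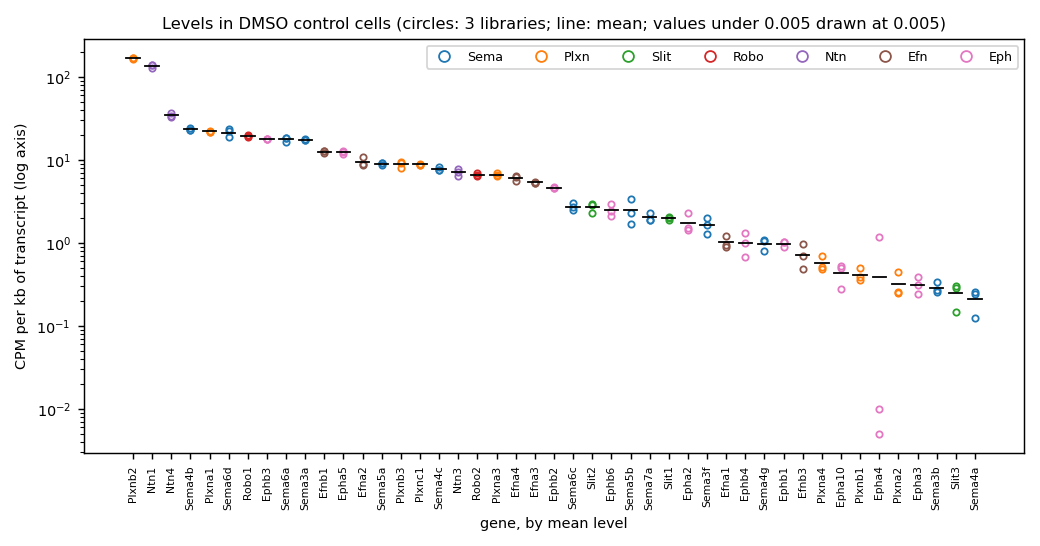
Level of each of the 45 genes of the drug table in control cells with DMSO, in CPM per kb of longest transcript on a log axis, ordered by mean, with colours for the 7 families. Plxnb2 and Ntn1 stood at 166.0 and 135.5 CPM per kb, and the lowest means lay below 1 CPM per kb.

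AZD8330 against DMSO asks how guidance genes respond when MEK is blocked, in each genotype. Of the 45 genes, 27 rose and 7 fell in Vhl cells (75.6%, against 51.5% of the 13457 genes tested), and 25 rose and 9 fell in control cells (75.6%, against 60.8% of all genes), by edgeR's quasi-likelihood test at an adjusted p of 0.05. Over all genes, 25.9% rose and 25.6% fell in Vhl cells, and 29.1% rose and 31.7% fell in control cells. The median log2 change of the 45 was 0.42 in Vhl cells, where that of all genes was 0.03, and 0.62 in control cells, where that of all genes was -0.01. In both genotypes 25 genes rose and 7 fell. Genes whose mean was under 1 CPM with one treatment only were kept through the other: Sema3b, Sema4a and Efna1 in both genotypes, Epha4 in Vhl cells and Epha2 in control cells. Without them 25 rose and 6 fell in Vhl cells, and 23 rose and 7 fell in control cells. By role, 14 of 20 receptors rose in either genotype, and 13 of 25 ligands rose in Vhl cells and 11 of 25 in control cells. The ligands that rose include Sema3b and Sema4a, which were kept through their AZD8330 libraries. Whether the shares of the roles differ was not tested. Markers of other cell states moved in the same direction: the summed level of 6 astrocyte markers was 702.5 to 747.9 CPM with AZD8330 against 199.4 to 216.1 CPM with DMSO in Vhl cells, and 1298 to 1354 CPM against 302.9 to 333.5 CPM in control cells, with none at 0. Those of 8 neuronal markers were 2503 to 2533 CPM against 1472 to 1608 CPM in Vhl cells and 2112 to 2123 CPM against 1005 to 1057 CPM in control cells, with Syt1 at 0 in every DMSO library. The 8 oligodendrocyte markers summed to 890.1 to 943.8 CPM against 221.7 to 238.2 CPM in Vhl cells and 954.3 to 980.4 CPM against 197.3 to 205.0 CPM in control cells, with Mog at 0 in all but the Vhl DMSO group. Their part in the results was not tested, and more cells of a type and more RNA per cell cannot be told apart in bulk samples.

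**Figure D2:**
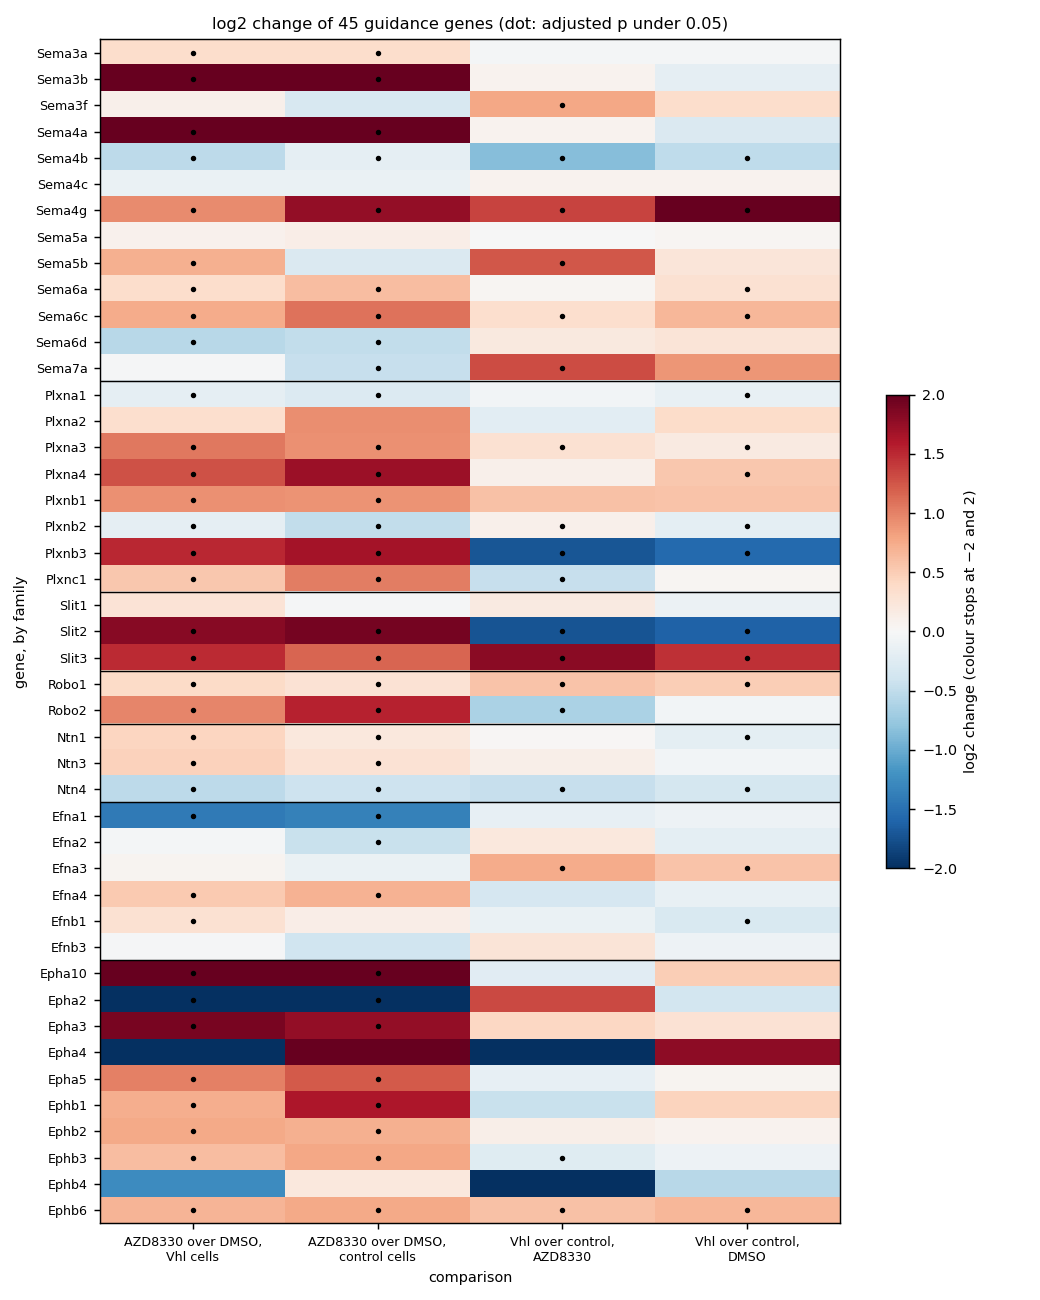
Log2 change of the 45 genes of the drug table, grouped by family, in the 4 comparisons of the drug experiment. Red is higher and blue lower in the group named first, and a dot marks an adjusted p under 0.05. In both AZD8330 columns 34 genes carry a dot, against 18 in each Vhl column.

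Both Robo receptors and 2 of the 3 Slit ligands rose with AZD8330, where 25.9% of all genes rose in Vhl cells and 29.1% in control cells. For Slit2, a secreted repellent, in Vhl cells it had 32.6, 27.6 and 31.8 CPM with AZD8330 against 5.17, 8.86 and 11.8 CPM with DMSO, and in control cells it had 88.8, 107 and 108 CPM with AZD8330 against 22.7, 28.2 and 29.3 CPM with DMSO. All treated libraries lay above all DMSO libraries of the same genotype, with fitted changes of 3.54-fold in Vhl cells and 3.79-fold in control cells (log2 1.82 ± 0.20 and 1.92 ± 0.17, SE; edgeR adjusted p = 6.86e-06 and 6.15e-07). For its paralogue Slit3, in Vhl cells it had 8.96, 11.7 and 9.54 CPM with AZD8330 against 2.63, 3.82 and 4.22 CPM with DMSO, and in control cells it had 3.29, 3.13 and 2.22 CPM with AZD8330 against 0.762, 1.60 and 1.5 CPM with DMSO, changes of 2.82-fold and 2.24-fold. Slit1 stayed between 9.46 and 14.6 CPM in all 12 libraries and passed in none of the drug-table comparisons. For Robo2, a Slit receptor, in Vhl cells it had 108, 106 and 107 CPM with AZD8330 against 53.3, 51.5 and 58.8 CPM with DMSO, and in control cells it had 171, 154 and 170.4 CPM with AZD8330 against 56.2, 59.2 and 54.2 CPM with DMSO. Robo2 was 1.96-fold higher in Vhl cells and 2.92-fold higher in control cells with the inhibitor, with edgeR adjusted p = 1.73e-08 and 1.07e-10. Robo1 also rose: in Vhl cells it had 268, 261 and 272 CPM with AZD8330 against 192, 205 and 219 CPM with DMSO, and in control cells it had 171, 187 and 179 CPM with AZD8330 against 144, 149 and 146 CPM with DMSO, or 1.30-fold and 1.22-fold.

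Among the 13 semaphorins, 7 rose and 2 fell in Vhl cells, and 6 rose and 3 fell in control cells. The shares that rose over all genes were 25.9% in Vhl cells and 29.1% in control cells. The semaphorins that rose include Sema3b and Sema4a, which were kept through their AZD8330 libraries. Sema3b and Sema4a were near the 1 CPM minimum with DMSO and above it with AZD8330. For Sema4a, a transmembrane class 4 semaphorin, in Vhl cells it had 5.59, 4.91 and 6.62 CPM with AZD8330 against 0.717, 0.545 and 0.377 CPM with DMSO, and in control cells it had 5.39, 5.09 and 5.88 CPM with AZD8330 against 0.825, 0.401 and 0.785 CPM with DMSO. The treated libraries lay above the DMSO libraries in each genotype. For Sema3b, a secreted class 3 semaphorin, in Vhl cells it had 7.65, 5.30 and 6.84 CPM with AZD8330 against 0.796, 0.750 and 1.06 CPM with DMSO, and in control cells it had 7.22, 5.87 and 5.74 CPM with AZD8330 against 1.14, 0.869 and 0.928 CPM with DMSO, again without overlap. Both genes passed the filter through their treated libraries alone, so their values are given as a description and no fold change or p-value is given. For Sema4g, another class 4 member, in Vhl cells it had 43.6, 28.8 and 43.2 CPM with AZD8330 against 18.9, 19.9 and 20.9 CPM with DMSO, and in control cells it had 19.9, 14.2 and 11.1 CPM with AZD8330 against 3.62, 4.88 and 4.85 CPM with DMSO. Its treated libraries scattered, yet none overlapped the DMSO libraries of the same genotype (1.94-fold and 3.39-fold).

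Class 6 semaphorins, transmembrane ligands of class A plexins, did not move as one. For Sema6c, in Vhl cells it had 30.0, 29.2 and 28.4 CPM with AZD8330 against 17.3, 17.0 and 17.9 CPM with DMSO, and in control cells it had 25.5, 19.9 and 24.2 CPM with AZD8330 against 10.9, 9.89 and 12.1 CPM with DMSO, with no overlap and changes of 1.68-fold and 2.12-fold. For Sema6a, in Vhl cells it had 178, 182 and 215 CPM with AZD8330 against 135, 146 and 169 CPM with DMSO, and in control cells it had 188, 188 and 183 CPM with AZD8330 against 114, 124 and 126 CPM with DMSO, changes of 1.28-fold and 1.54-fold. Sema6d, in contrast, fell with AZD8330 (log2 -0.56 in Vhl cells and -0.50 in control cells; edgeR adjusted p = 0.00194 and 0.00349). Sema3a, a secreted repellent that also acts on OPCs, rose slightly: in Vhl cells it had 123, 135 and 128 CPM with AZD8330 against 98.2 to 105 CPM in the 3 libraries with DMSO, and in control cells it had 122, 136 and 138 CPM with AZD8330 against 104, 104 and 103 CPM with DMSO, which made 1.27-fold and 1.28-fold. For Sema4b, in Vhl cells it had 43.5, 46.4 and 45.2 CPM with AZD8330 against 64.8, 63.9 and 66.6 CPM with DMSO, and in control cells it had 81.7, 84.1 and 78.8 CPM with AZD8330 against 90.1, 96.6 and 90.4 CPM with DMSO. Sema4b fell in both genotypes, by 1.44-fold in Vhl cells and 1.13-fold in control cells. Sema3f, Sema4c and Sema5a passed in neither genotype. Sema7a fell in control cells (log2 -0.46, edgeR adjusted p = 0.0202), a call lost with no filter on low counts (adjusted p = 0.0796) and without AZD8330 library A (adjusted p = 0.0768) or DMSO library C (0.0864). Sema5b rose in Vhl cells (log2 0.71, edgeR adjusted p = 0.025), a call lost without AZD8330 library B or C or DMSO library A or B (adjusted p = 0.0585 to 0.0981).

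Of the 8 plexins, 5 rose and 2 fell in either genotype, where 25.9% of all genes rose in Vhl cells and 29.1% in control cells. For Plxnb3, a receptor of Sema5a, in Vhl cells it had 54.4, 44.4 and 55.4 CPM with AZD8330 against 16.8, 18.2 and 19.4 CPM with DMSO, and in control cells it had 167, 169.6 and 168 CPM with AZD8330 against 56.9, 48.0 and 55.0 CPM with DMSO. No library overlapped, and the changes were 2.83-fold and 3.16-fold (log2 1.5 ± 0.09 and 1.66 ± 0.08, SE; edgeR adjusted p = 2.75e-08 and 1.58e-09). For Plxna4, a class A plexin, in Vhl cells it had 24.6, 27.4 and 24.9 CPM with AZD8330 against 9.47, 10.8 and 11.6 CPM with DMSO, and in control cells it had 25.7, 23.6 and 22.6 CPM with AZD8330 against 6.28, 9.03 and 6.57 CPM with DMSO. Plxna4 was 2.4-fold higher in Vhl cells and 3.28-fold higher in control cells, though its exons overlap those of an antisense gene and the labels do not say whether strand was kept. For Plxna3, in Vhl cells it had 108, 104 and 107 CPM with AZD8330 against 55.7, 49.1 and 49.8 CPM with DMSO, and in control cells it had 88.4, 81.7 and 88.0 CPM with AZD8330 against 45.1, 44.0 and 47.7 CPM with DMSO, about the same change in each genotype (2.07-fold and 1.89-fold). For Plxnc1, the receptor of Sema7a, in Vhl cells it had 94.3, 97.1 and 95.1 CPM with AZD8330 against 66.6, 64.6 and 65.6 CPM with DMSO, and in control cells it had 139.7, 126 and 127 CPM with AZD8330 against 65.2, 64.0 and 63.4 CPM with DMSO. Its change was 1.46-fold in Vhl cells and 2.04-fold in control cells, for a gene whose exons overlap those of another on the same strand. For Plxnb1, in Vhl cells it had 7.93, 10.3 and 12.1 CPM with AZD8330 against 3.66, 4.57 and 7.77 CPM with DMSO, and in control cells it had 5.77, 7.11 and 7.25 CPM with AZD8330 against 3.11, 3.34 and 4.28 CPM with DMSO, changes of 1.89-fold and 1.87-fold at a low level, for a gene that also has an antisense partner. Plxnb2, the most abundant plexin, went the other way: in Vhl cells it had 827, 827 and 830.3 CPM with AZD8330 against 931, 932 and 958 CPM with DMSO, and in control cells it had 782, 761 and 762 CPM with AZD8330 against 1065, 1086 and 1085 CPM with DMSO. It fell by 1.14-fold in Vhl cells and 1.40-fold in control cells, and Plxna1 fell by 1.14-fold and 1.21-fold. The exons of Plxna1 overlap those of an opposite-strand gene, and 8.57% of its 31-base words also occur in other genes.

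Of 10 Eph genes 7 rose and 1 fell in either genotype. Of 6 ephrins 2 rose and 1 fell in Vhl cells, and 1 rose and 2 fell in control cells. The shares over all genes were 25.9% higher and 25.6% lower in Vhl cells, and 29.1% higher and 31.7% lower in control cells. Whether the Eph genes and the ephrins differ was not tested. The falls include Efna1 in both genotypes and Epha2 in control cells, kept through their DMSO libraries. Epha5 is a receptor of A-type ephrins: in Vhl cells it had 203, 186 and 182 CPM with AZD8330 against 86.3, 94.1 and 103 CPM with DMSO, and in control cells it had 218, 208 and 211 CPM with AZD8330 against 94.2, 87.0 and 92.2 CPM with DMSO. Epha5 was 2.01-fold higher in Vhl cells and 2.33-fold higher in control cells, with edgeR adjusted p = 1.86e-08 and 1.71e-09. For Epha10, whose kinase domain is held to be inactive, in Vhl cells it had 9.65, 9.22 and 7.21 CPM with AZD8330 against 1.99, 1.5 and 1.21 CPM with DMSO, and in control cells it had 8.49, 9.20 and 12.8 CPM with AZD8330 against 1.27, 1.34 and 0.714 CPM with DMSO, changes of 5.54-fold and 9.06-fold. For Epha3, in Vhl cells it had 9.31, 8.57 and 6.55 CPM with AZD8330 against 2.31, 2.59 and 1.66 CPM with DMSO, and in control cells it had 4.82, 6.13 and 7.32 CPM with AZD8330 against 1.78, 2.21 and 1.36 CPM with DMSO, changes of 3.71-fold and 3.40-fold. Epha2 was the Eph receptor that fell: in Vhl cells it had 0.690, 1.37 and 1.60 CPM with AZD8330 against 6.05, 4.70 and 5.13 CPM with DMSO, and in control cells it had 1.01, 0.196 and 0.215 CPM with AZD8330 against 5.90, 8.96 and 5.57 CPM with DMSO. Its groups did not overlap, and Epha2 was 4.31-fold lower in Vhl cells (edgeR adjusted p = 0.00189). In control cells it had been kept through the DMSO libraries, and no fold change is given.

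Of the 5 B-type Eph receptors 4 rose in both genotypes, and Ephb4 passed in neither. Over all genes 25.9% rose in Vhl cells and 29.1% in control cells. For Ephb3, in Vhl cells it had 126, 119 and 116 CPM with AZD8330 against 86.0, 76.0 and 74.1 CPM with DMSO, and in control cells it had 151, 137 and 141 CPM with AZD8330 against 84.5, 84.0 and 83.4 CPM with DMSO, changes of 1.53-fold and 1.70-fold. For Ephb2, in Vhl cells it had 93.9, 82.2 and 90.8 CPM with AZD8330 against 53.7, 48.2 and 55.5 CPM with DMSO, and in control cells it had 88.2, 79.0 and 78.3 CPM with AZD8330 against 49.2, 50.7 and 50.5 CPM with DMSO, changes of 1.70-fold and 1.63-fold. Their libraries did not overlap between treatments. For Ephb6, another receptor with an inactive kinase, in Vhl cells it had 24.9, 23.4 and 23.7 CPM with AZD8330 against 13.5, 16.9 and 14.3 CPM with DMSO, and in control cells it had 14.6, 15 and 18.1 CPM with AZD8330 against 7.93, 9.16 and 11.1 CPM with DMSO, changes of 1.61-fold and 1.69-fold. For Ephb1, which has an antisense partner, in Vhl cells it had 8.69, 11.1 and 11.3 CPM with AZD8330 against 8.20, 4.97 and 5.58 CPM with DMSO, and in control cells it had 14.5, 13.4 and 14.3 CPM with AZD8330 against 4.76, 4.14 and 4.78 CPM with DMSO, changes of 1.66-fold and 3.08-fold. Epha4 could not be read as responding or not: in Vhl cells it had 0.483, 0.720 and 0.0728 CPM with AZD8330 against 6.93, 7.70 and 11 CPM with DMSO, and in control cells it had 0.951, 43.0 and 0.215 CPM with AZD8330 against 0.0635, 7.35 and 0 CPM with DMSO. The 3 libraries of control cells with AZD8330 spanned a wider range than the 4 group means did, and Epha4 passed in none of the comparisons.

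The ephrin most abundant per length, Efnb1, moved little: in Vhl cells it had 40.9, 43.4 and 38.2 CPM with AZD8330 against 32.1, 34.4 and 33.0 CPM with DMSO, and in control cells it had 45.2, 43.1 and 46.4 CPM with AZD8330 against 39.5, 41.7 and 41.5 CPM with DMSO. Efnb1 passed in Vhl cells (1.23-fold, edgeR adjusted p = 0.0013) and missed in control cells (1.10-fold, edgeR adjusted p = 0.0753). For Efna1, a ligand of Epha2, in Vhl cells it had 0.621, 0.392 and 0.728 CPM with AZD8330 against 1.51, 1.84 and 1.28 CPM with DMSO, and in control cells it had 0.507, 0.718 and 0.717 CPM with AZD8330 against 1.46, 1.54 and 2.0 CPM with DMSO. Efna1 passed the filter through its DMSO libraries alone, so these values, which did not overlap between treatments, are given as a description with no fold change or p-value. Efna4 rose in both genotypes (1.44-fold and 1.63-fold), although 8.80% of its 31-base words also occur in a gene on the opposite strand. For Efnb3, in Vhl cells it had 2.28, 1.83 and 2.11 CPM with AZD8330 against 2.71, 1.77 and 1.89 CPM with DMSO, and in control cells it had 1.58, 2.15 and 1.44 CPM with AZD8330 against 3.05, 1.54 and 2.21 CPM with DMSO, with overlap throughout. The netrins split. For Ntn1, in Vhl cells it had 913, 945 and 949 CPM with AZD8330 against 704, 696 and 695 CPM with DMSO, and in control cells it had 921, 936 and 917 CPM with AZD8330 against 754, 818 and 816 CPM with DMSO, changes of 1.34-fold and 1.16-fold. Ntn3 rose as well (1.37-fold and 1.22-fold), though its exons overlap those of other genes on both strands. For Ntn4, a netrin of basement membranes, in Vhl cells it had 70.3, 70.6 and 65.1 CPM with AZD8330 against 96.2, 102 and 97.8 CPM with DMSO, and in control cells it had 97.0, 95.3 and 92.0 CPM with AZD8330 against 124, 119.9 and 132 CPM with DMSO. Ntn4 was lower with the inhibitor without overlap, by 1.43-fold and 1.33-fold.

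Whether the drug effect itself differed between genotypes was tested as the difference of the log2 changes, Vhl cells minus control cells. Of the 45 genes 6 passed (13.3%, against 12.8% of all genes), so the share was near the background. Ntn1 and Plxnb2 had a positive difference, and Ephb1, Plxnc1, Robo2 and Sema4b a negative one, where 7.79% of all genes had a positive and 4.96% a negative one. Of the differences called over all genes 61.1% were positive, and 44% with total-count scaling. With that scaling Ntn1 did not pass (edgeR adjusted p = 0.0803), leaving 1 positive and 4 negative differences, nor did it without AZD8330 library A of Vhl cells (0.124) or B of control cells (0.143). Ephb1 (-0.89, edgeR adjusted p = 0.0434) was lost without any 1 of 11 of the 12 libraries (adjusted p = 0.0505 to 0.0963) and stayed without DMSO library B of Vhl cells. Robo2 and Plxnc1 rose in both genotypes but less in Vhl cells, with differences of -0.57 ± 0.08 and -0.49 ± 0.06 on the log2 scale (SE; edgeR adjusted p = 0.000708 and 0.000371). Plxnb2 fell less in Vhl cells, and its difference was 0.31 ± 0.03 (SE; edgeR adjusted p = 0.000118). For Slit2 and Plxnb3 the difference was -0.10 ± 0.27 and -0.16 ± 0.13 (SE; edgeR adjusted p = 0.868 and 0.481). Epha2 had 1.69 ± 0.68 and did not pass (edgeR adjusted p = 0.137). The ERK targets Dusp6 and Etv4 passed with a positive difference, falling less in Vhl cells, and their part in these differences was not tested.

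**Figure D3:**
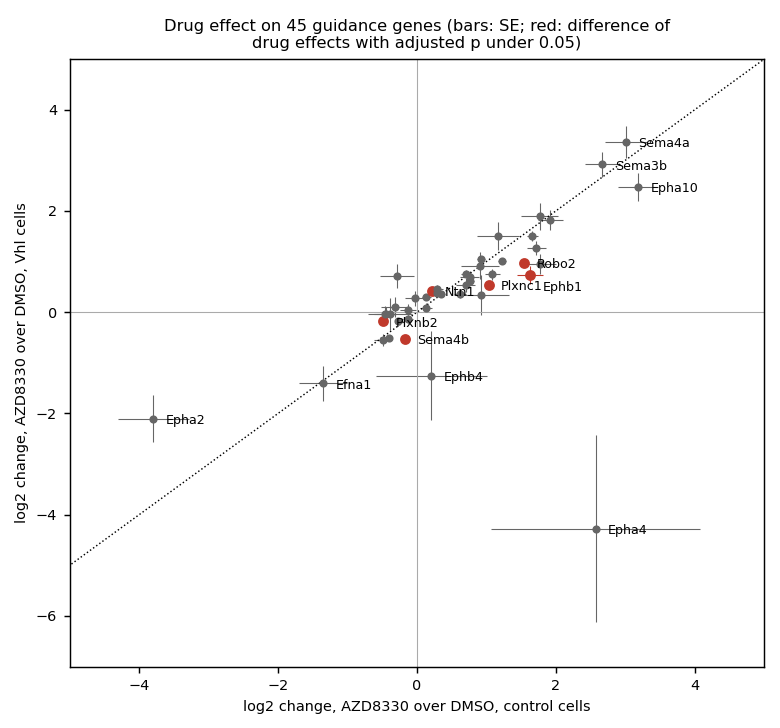
Log2 change with AZD8330 in Vhl cells (vertical axis) against that in control cells (horizontal axis) for the 45 genes, with SE bars and the line of equal change. The 6 genes in red are those whose difference passed, and Epha4 lies far from the line with the widest bars.

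Vhl against control cells asks what the Vhl edit changes, with each medium. With AZD8330, 11 of the 45 genes were higher and 7 lower in Vhl cells (40%, against 30% of all genes, 16% higher and 14% lower). With DMSO, 10 were higher and 8 lower (40%, against 32.3% of all genes, 13.8% higher and 18.5% lower), by edgeR's quasi-likelihood test. Higher calls were 42.7% of all calls with DMSO, and 56.6% with total-count scaling, under which 10 of the guidance genes were higher and 7 lower. The median log2 change of the 45 was 0.07 with AZD8330, where that of all genes was 0.01, and 0.04 with DMSO, where that of all genes was -0.03. Higher with both media were Efna3, Ephb6, Plxna3, Robo1, Sema4g, Sema6c, Sema7a and Slit3, and lower with both were Ntn4, Plxnb3, Sema4b and Slit2. Marker levels differed here too: astrocyte markers summed to less in Vhl cells and neuronal markers to more, by the sums given above. Gja1 made up most of the astrocyte sum, with a mean of 417 of 728 CPM in Vhl cells with AZD8330 and 901 of 1320 CPM in control cells. Gfap, Gja1 and S100b were lower in Vhl cells with both media and Aqp4 with AZD8330. Slc1a3 and Aldh1l1 did not pass, and the mean of Aldh1l1 was higher in Vhl cells with both media. Map2 made up most of the neuronal sum, with a mean of 1937 of 2515 CPM in Vhl cells with AZD8330. Dcx, Elavl3 and Map2 were higher in Vhl cells with both media and Tubb3 with AZD8330, where Rbfox3 was lower. Of the 10 OPC markers 8 were higher and Sox10 lower in Vhl cells with either medium. The part of any of these markers was not tested.

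Of the genes that passed, Slit2 and Plxnb3 were lowered most, from the values given above. Slit2 was 3.30-fold lower in Vhl cells with AZD8330 and 3.08-fold lower with DMSO (log2 -1.72 ± 0.17 and -1.62 ± 0.21, SE; edgeR adjusted p = 7.03e-06 and 6.1e-05). Plxnb3 was 3.28-fold lower with AZD8330 and 2.94-fold lower with DMSO (log2 -1.71 ± 0.08 and -1.55 ± 0.09, SE; edgeR adjusted p = 7.63e-09 and 9.37e-08). No Vhl library overlapped a control library of the same medium for either gene. Vhl cells with AZD8330 and control cells with DMSO held similar amounts: Slit2 averaged 30.7 ± 2.69 CPM in the treated Vhl cells and 26.7 ± 3.51 CPM in the control cells with DMSO, and Plxnb3 51.4 ± 6.08 and 53.3 ± 4.69 CPM (SD, n = 3 each). The libraries of those 2 groups overlapped for both genes, and that pair of groups was not tested. Sema4b was 1.81-fold lower with AZD8330 and 1.42-fold lower with DMSO, and Ntn4 1.38-fold and 1.28-fold.

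Slit3 ran opposite to Slit2. It was 3.48-fold higher in Vhl cells with AZD8330 and 2.76-fold higher with DMSO, from low levels (edgeR adjusted p = 0.000302 and 0.00245). Among the genes higher in Vhl cells, Sema4g had the largest change with DMSO, 4.47-fold, and was 2.55-fold higher with AZD8330 (edgeR adjusted p = 1.44e-05 and 0.000228). For Sema7a, a lipid-anchored semaphorin, in Vhl cells it had 12.1, 13.5 and 10.6 CPM with AZD8330 against 13.1, 12.1 and 11.6 CPM with DMSO, and in control cells it had 4.31, 5.35 and 4.88 CPM with AZD8330 against 6.22, 6.15 and 7.64 CPM with DMSO. Sema7a was 2.48-fold and 1.84-fold higher in Vhl cells, with no overlap in either medium. Robo1 was 1.49-fold higher with AZD8330 and 1.40-fold higher with DMSO. Ephb6 was 1.51-fold and 1.59-fold higher, and Sema6c 1.26-fold and 1.59-fold. The call of Sema6c with AZD8330 was lost with DESeq2, with no filter on low counts, and without Vhl library A or B or control library B (adjusted p = 0.0589 to 0.201). Efna3 was 1.67-fold and 1.48-fold higher, although 10.5% of its 31-base words also occur in an opposite-strand gene. Plxna3 was 1.24-fold and 1.13-fold higher, and its call with DMSO was lost with DESeq2, with no filter on low counts, and without Vhl library A, control library A or control library B (adjusted p = 0.0759 to 0.148).

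**Figure D4:**
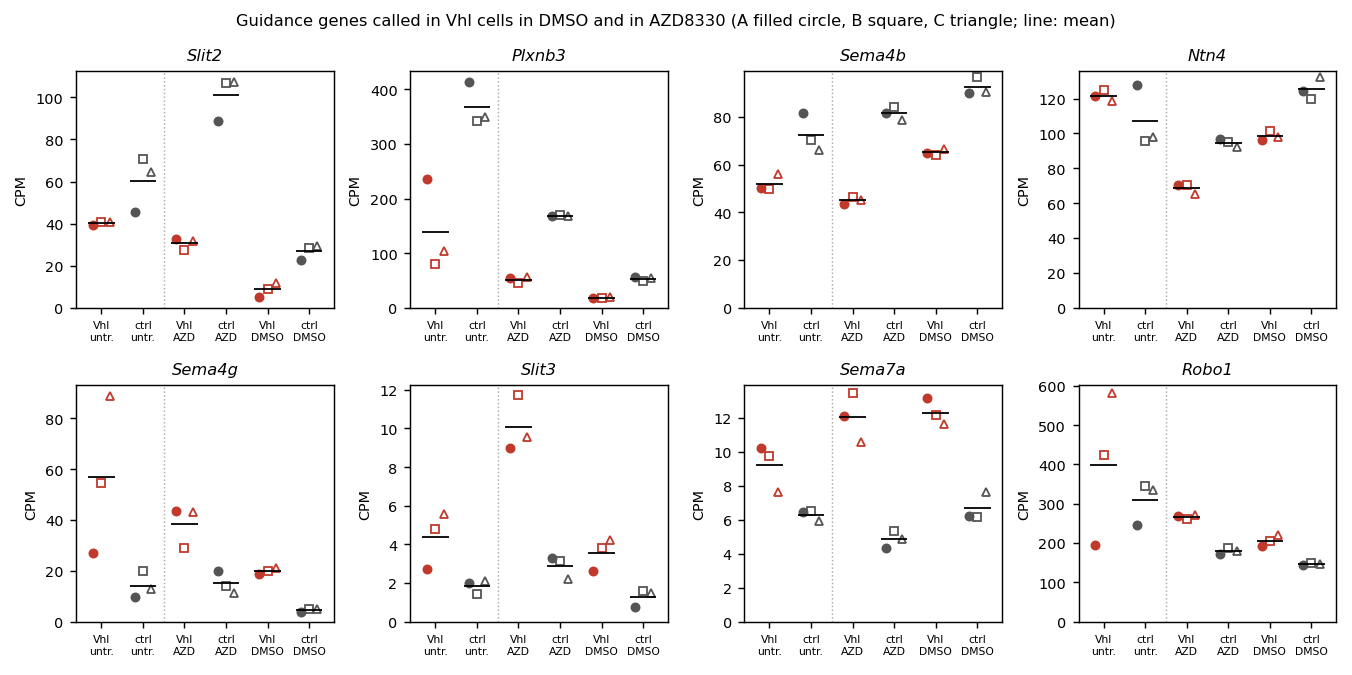
CPM of 8 genes that passed between Vhl (red) and control (grey) cells with both media, in every library of the 6 groups, on axes that start at 0, with the untreated experiment left of the dotted line. Slit2, Plxnb3, Sema4b and Ntn4 are lower in Vhl cells in the drug experiment, and Sema4g, Slit3, Sema7a and Robo1 are higher.

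Other calls appeared with 1 medium, and a call with 1 medium is no sign that the media differ unless the difference above passed. With AZD8330, Sema3f and Sema5b were higher and Ephb3, Plxnc1 and Robo2 lower in Vhl cells. For Sema5b, a transmembrane semaphorin with thrombospondin repeats, in Vhl cells it had 16.6, 26.1 and 23.6 CPM with AZD8330 against 13.5, 12.3 and 14.7 CPM with DMSO, and in control cells it had 9.51, 7.24 and 11.3 CPM with AZD8330 against 10.6, 7.96 and 15.8 CPM with DMSO. The change in Vhl cells over control cells was 2.36-fold with AZD8330 (edgeR adjusted p = 0.0018), and the difference of drug effects missed (log2 1.0, edgeR adjusted p = 0.0821). For Sema3f, in Vhl cells it had 9.03, 6.34 and 7.57 CPM with AZD8330 against 6.77, 7.5 and 7.17 CPM with DMSO, and in control cells it had 3.93, 4.43 and 5.09 CPM with AZD8330 against 5.58, 4.35 and 6.85 CPM with DMSO, a change of 1.71-fold in Vhl cells with AZD8330 that was lost without library A of either genotype (edgeR adjusted p = 0.0735 and 0.0501). With DMSO, Plxna4 and Sema6a were higher in Vhl cells and Efnb1, Ntn1 and Plxna1 lower, and Sema6a was lost without Vhl library C (edgeR adjusted p = 0.0607) or control library A (0.0584). Plxnb2 was 1.08-fold of control in Vhl cells with AZD8330 and 0.872-fold of control with DMSO, calls of opposite sign and small size (edgeR adjusted p = 0.00441 and 4.82e-05). The Plxnb2 call with AZD8330 was lost with no filter on low counts (adjusted p = 0.0759) and without Vhl library A (adjusted p = 0.153) or control library B (0.182).

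The 250 bases before the start of the 3 genes lowered most and the 3 raised most with DMSO, among those called with both media, are shown because the edit concerns the HIF pathway. The sequences are from RefSeq on GRCm38.p6, all on the plus strand, with matches to ACGTG or GCGTG, the core of the hypoxia response element, in capitals on whichever strand they lie (CACGT and CACGC when read from the other).
Slit2, chr5:47982905-47983154: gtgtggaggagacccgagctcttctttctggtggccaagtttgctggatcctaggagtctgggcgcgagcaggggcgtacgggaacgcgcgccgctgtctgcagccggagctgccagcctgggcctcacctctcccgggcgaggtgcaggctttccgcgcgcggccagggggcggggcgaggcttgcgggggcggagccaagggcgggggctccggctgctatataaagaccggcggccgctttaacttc
Plxnb3, chrX:73756853-73757102: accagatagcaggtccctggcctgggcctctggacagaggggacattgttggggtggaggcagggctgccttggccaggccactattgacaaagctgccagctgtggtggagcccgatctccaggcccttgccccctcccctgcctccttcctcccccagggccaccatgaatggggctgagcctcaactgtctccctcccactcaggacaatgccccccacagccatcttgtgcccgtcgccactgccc
Sema4b, chr7:80186620-80186869: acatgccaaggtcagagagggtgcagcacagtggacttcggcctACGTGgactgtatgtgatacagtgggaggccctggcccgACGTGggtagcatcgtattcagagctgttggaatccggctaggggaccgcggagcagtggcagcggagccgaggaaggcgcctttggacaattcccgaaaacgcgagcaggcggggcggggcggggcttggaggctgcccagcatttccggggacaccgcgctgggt
Sema4g, chr19:44989094-44989343: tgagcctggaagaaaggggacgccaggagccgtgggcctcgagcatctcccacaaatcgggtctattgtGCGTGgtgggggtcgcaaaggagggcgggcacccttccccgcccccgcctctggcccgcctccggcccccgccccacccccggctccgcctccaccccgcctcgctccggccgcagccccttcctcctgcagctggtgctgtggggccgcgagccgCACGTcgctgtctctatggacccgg
Slit3, chr11:35121206-35121455: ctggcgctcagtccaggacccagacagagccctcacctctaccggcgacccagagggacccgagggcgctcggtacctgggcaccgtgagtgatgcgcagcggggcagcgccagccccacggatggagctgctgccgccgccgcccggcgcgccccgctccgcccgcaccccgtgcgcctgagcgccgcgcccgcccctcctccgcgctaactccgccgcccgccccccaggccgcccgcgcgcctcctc
Sema7a, chr9:57939862-57940111: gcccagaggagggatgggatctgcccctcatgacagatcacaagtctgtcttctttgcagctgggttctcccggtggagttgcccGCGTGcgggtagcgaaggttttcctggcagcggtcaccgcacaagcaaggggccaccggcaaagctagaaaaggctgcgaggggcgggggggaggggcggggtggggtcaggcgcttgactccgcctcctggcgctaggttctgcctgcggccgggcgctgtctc

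The cores ACGTG and GCGTG and the ETS site CCGGAAGT were searched on both strands in that window. The palindrome CACGTG would hold ACGTG on both strands, and none of the 6 windows holds it. Sema4b has 2 matches to ACGTG, Sema4g has 1 to each core, Sema7a has 1 to GCGTG, and Slit2, Plxnb3 and Slit3 have none. Of the 45 genes 37 had a window in the table. A core was present in 6 of the 8 genes higher in Vhl cells with both media, in 1 of the 4 lower with both, in 54.1% of the 37, and in 38.6% of the first windows of all 27025 genes. The median share of G and C was 67.2% in the 8 windows, 67.4% in the 4, 64.8% in the 37 and 52% in all, and a match is no evidence of binding. The ETS site was in none of the 37 windows and in 2.93% of all. The GENCODE annotation starts Sema4g at base 44989101 and Slit3 at 35121224, near the beginning of the windows shown. Most of both windows thus lies inside the annotated gene. It starts Slit2 at 47983138, Plxnb3 at 73757090 and Sema4b at 80186841, near the end of their windows, and Sema7a at 57940112, just after its window.

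In the untreated experiment no guidance gene passed between Vhl and control cells by edgeR's quasi-likelihood test (0 of 45, where 0.0147% of the 13570 genes passed). The 4 HIF targets Vegfa, Bnip3, Slc2a1 and Pdk1 did not pass here either, despite a median log2 change of 4.23. In each of them Vhl library A was the lowest of the Vhl libraries. Vegfa had 38.7, 407 and 642 CPM in Vhl cells against 6.58, 8.27 and 6.12 CPM in control cells. At an unadjusted p under 0.05 there were 13 of 45 genes, against 9.34% of all genes. The 13 include Sema4d, which was kept through its control libraries. It averaged 0.319 CPM in Vhl cells against 3.37 CPM in control cells. Groups did not overlap for 16 of the 45, where 15.8% of all genes had no overlap. DESeq2 called 4 of the 45, against 2.62% of all genes, namely Sema4g higher and Ephb3, Plxnb3 and Sema4a lower in Vhl cells. The median log2 change of the 45 was -0.25, where that of all genes was 0.05. Markers of other cell types differed in these libraries too. The 6 astrocyte markers summed to 240.2 to 385.6 CPM in Vhl cells against 574.8 to 620.5 CPM in control cells, with none at 0, and the 8 oligodendrocyte markers to 900.2 to 1091 CPM against 1272 to 3986 CPM, with Mog at 0 in both groups. Neither sum overlapped between the groups, and their part in the values below was not tested. Gja1 made up most of the astrocyte sum, with a mean of 182 of 302 CPM in Vhl cells and 436 of 604 CPM in control cells. The mean of Slc1a3 was higher in Vhl cells, at 35.6 CPM against 29.1 CPM, and none of the 6 passed.

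Of the 12 genes called the same way with both media, 8 had the same sign untreated and 4 the opposite one: Ntn4 at 0.18, Ephb6 at -0.09, Plxna3 at -0.15 and Sema6c at -0.07 on the log2 scale, none past the threshold. The matching share over all genes was not computed, so this count is a description only. Plxnb3 had 235, 79.4 and 104 CPM in untreated Vhl cells against 414, 342 and 349 CPM in untreated control cells, a log2 difference of -1.40 ± 0.40 (SE; edgeR adjusted p = 0.346). Sema4g had 26.8, 54.5 and 88.9 CPM against 9.58, 19.8 and 12.8 CPM, a log2 difference of 2.01 ± 0.48 (SE; edgeR adjusted p = 0.242). Slit3 had 2.73, 4.82 and 5.58 CPM in Vhl cells against 2.0, 1.43 and 2.08 CPM in control cells. These 3 did not overlap between the groups. Slit2 had 39.4, 40.5 and 41.0 CPM in Vhl cells against 45.7, 70.7 and 64.7 CPM in control cells, also without overlap. Sema7a had 10.2, 9.76 and 7.61 CPM in Vhl cells against 6.44, 6.5 and 5.92 CPM in control cells. Sema4a had 2.27, 2.73 and 1.33 CPM in Vhl cells against 4.43, 6.12 and 6.77 CPM in control cells, both without overlap, but Sema4a did not pass between genotypes with DMSO or AZD8330.

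Ephb3 came nearest to the threshold. It had 124, 116 and 107 CPM in untreated Vhl cells against 222, 257 and 247 CPM in untreated control cells, 2.09-fold lower (edgeR adjusted p = 0.0945). Ephb2 showed 67.0, 88.9 and 99.4 CPM in Vhl cells against 159, 134 and 135 CPM in control cells. Robo1, in contrast, overlapped, with 195, 423 and 580.5 CPM in Vhl cells against 246, 345 and 336 CPM in control cells, and Vhl library A was the lowest of all. Sema5a and Slit1 behaved likewise, with Vhl library A below the control libraries and B and C above them: Slit1 had 9.53, 42.7 and 54.0 CPM in Vhl cells against 11.9, 17.4 and 17.8 CPM in control cells. Epha4 was erratic here as well, with 0.694, 7.92 and 56.7 CPM in Vhl cells against 65.7, 56.7 and 20.0 CPM in control cells. Without Vhl library A, 4 of the 45 genes passed, against 3.17% of all genes (Plxnb3 and Ephb3 lower, Sema4g and Slit1 higher), and with both A libraries left out, a choice made after seeing the data, 4 passed, against 4.46% of all genes (Plxnb3 and Ephb3 lower, Sema5a and Slit1 higher).

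**Figure D5:**
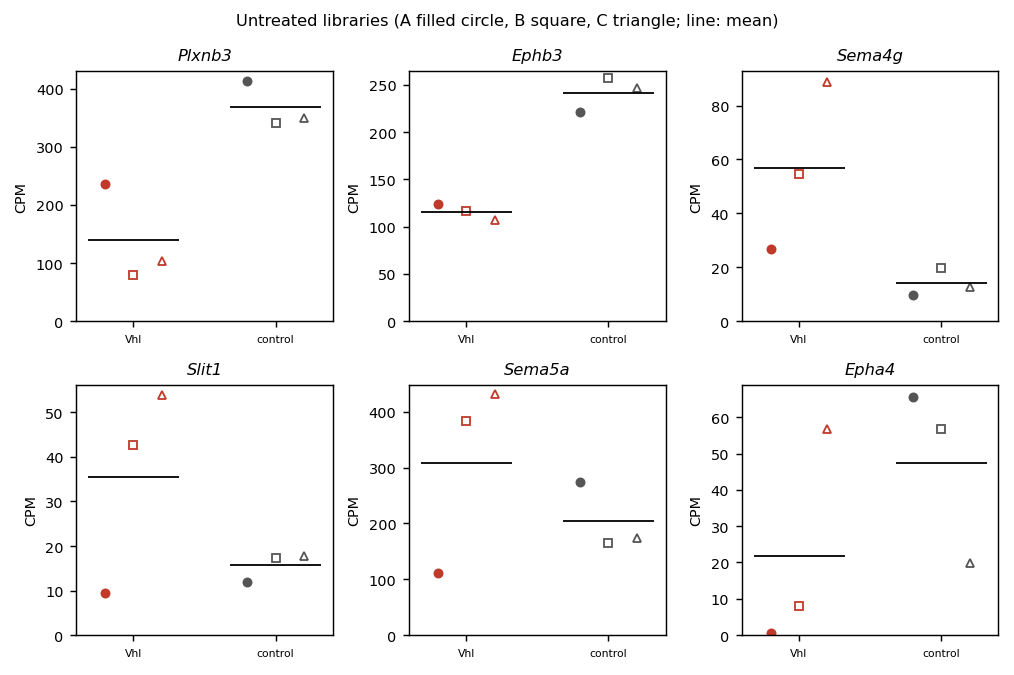
CPM of 6 genes in each untreated library of Vhl and control cells, on axes that start at 0, with library A filled. Plxnb3, Ephb3 and Sema4g separate the groups, while for Slit1 and Sema5a library A of the Vhl cells lies apart from B and C.

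Co-receptors and other guidance cues, a list of 34 genes outside the families above, also moved with AZD8330. Of 31 tested, 18 rose and 6 fell in Vhl cells (77.4%, against 51.5% of all genes), and 17 rose and 5 fell in control cells (71%, against 60.8% of all genes), with medians of 0.50 and 0.75 on the log2 scale. Draxin, a secreted repellent that binds Dcc and netrins, had 165, 171 and 157 CPM with AZD8330 against 33.5, 36.0 and 43.0 CPM with DMSO in Vhl cells, and 274, 298 and 300.0 CPM against 22.6, 24 and 27.7 CPM in control cells. That was a log2 change of 2.13 ± 0.09 and 3.56 ± 0.09 (SE; edgeR adjusted p = 3.18e-10 and 3.44e-12), with no overlap. Neo1, the netrin and Rgma receptor, averaged 450.4 ± 8.14 CPM with AZD8330 and 219.8 ± 8.42 CPM with DMSO in Vhl cells, and 635 ± 4.08 and 233 ± 4.98 CPM in control cells (SD, n = 3 each). Rgma itself rose by 1.78 and 1.74 on the log2 scale, and Lingo1, a part of the Nogo receptor complex that restrains OPC differentiation, by 1.52 and 2.67. Of the repulsive netrin receptors, Unc5b changed by -1.30 in Vhl cells and -1.79 in control cells, and Unc5c rose by 1.72 and 1.17. The neuropilins also split: Nrp1 had log2 changes of -0.48 and -0.60, and Nrp2 of 0.53 and 0.32, all past the threshold.

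Between genotypes the same list had 6 genes higher and 9 lower in Vhl cells with AZD8330 (48.4%, against 30% of all genes), and 10 higher and 3 lower with DMSO (41.9%, against 32.3%). Draxin and Lingo1 were lower in Vhl cells with AZD8330 (log2 -0.82 and -0.68) and higher with DMSO (0.60 and 0.48), and the difference of drug effects passed for both (-1.42 and -1.15; edgeR adjusted p = 1.36e-05 and 9.51e-06). Unc5b was higher in Vhl cells with either medium (log2 1.12 with AZD8330 and 0.63 with DMSO), and Nrp2 was lower (-0.39 and -0.60). Untreated, none of the 29 genes tested passed.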

How the data were processed

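Total RNA was sequenced in 18 libraries of 6 groups. Both deposited tables hold values that, tested on the files, are estimated counts per gene, although the authors named them as TPM: library totals differ, and 57.7% (untreated) and 58.8% (drug) of values above 0 are whole within 0.001. Per the submitters' processing notes, Salmon 0.14.1 and mm10 were used; no source used here names the annotation, library kit or strandedness. Groups come from the labels. Counts were rounded and each table was fitted by itself with edgeR 4.0.16 (TMM scaling, quasi-likelihood test, R 4.3.3), over genes averaging 1 CPM or more (13457 in the drug table, 13570 untreated), with Benjamini-Hochberg adjusted p under 0.05; the 4 drug groups shared 1 fit. The scripts used Python 3.11.15. CPM are TMM-scaled. The test was checked on simulated counts. Levels per kb use the longest GENCODE M21 transcript. Alternatives were total counts, DESeq2 1.42.0, limma 3.58.1 on log2(CPM + 1) and log2(CPM + 0.1), no filter, a replicate block and leaving out each library.

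Members and lists were chosen with earlier results of these data known. Genes given per library were those with 5 CPM or more in a group that passed in a comparison, ranked by log2 change up to 24, the highest per kb of each family, and a set of well-known members; untreated values are printed where the untreated text names the gene. Over all tested genes the correlations of same-letter deviations were weak. They ran from -0.0810 to 0.0202 untreated (3 pairs) and from -0.0442 to 0.0531 in the drug table (18 pairs). Such correlations cannot exclude a shift shared by part of the genes. Several marker genes were higher in library A of both untreated genotypes. Sox10 had 326, 15.3 and 16.0 CPM in untreated Vhl cells and 526, 87.8 and 87.5 CPM in untreated control cells (libraries A, B and C). Gpr17 had 695, 453 and 466 CPM against 2978, 766 and 757 CPM, and S100b 121, 33.7 and 32.9 CPM against 123, 51.8 and 50.6 CPM. For Olig2, library A was the highest in Vhl cells and the lowest in control cells.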

Additional observations from a re-analysis of the deposited data

Results flagged for a closer look

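For 6 of the 45 guidance genes (13.3%, against 12.8% of all genes, so near the background) the response to AZD8330 differed between Vhl and control cells, by a test of the difference of the log2 changes (Vhl cells minus control cells) with edgeR's quasi-likelihood test. Robo2, a Slit receptor, differed by -0.57 ± 0.08 (SE): it rose by 0.97 in Vhl cells and 1.54 in control cells. Plxnc1, the Sema7a receptor, differed by -0.49 ± 0.06: it rose by 0.54 in Vhl cells and 1.03 in control cells. Sema4b differed by -0.35 ± 0.07, with changes of -0.53 in Vhl cells and -0.18 in control cells. Plxnb2 differed by 0.31 ± 0.03, with changes of -0.18 in Vhl cells and -0.49 in control cells. Ntn1 differed by 0.20 ± 0.05, with changes of 0.42 in Vhl cells and 0.22 in control cells. The Ntn1 call was lost with total-count scaling, and without AZD8330 library A of Vhl cells or B of control cells. Ephb1 differed by -0.89 ± 0.26 (edgeR adjusted p = 0.0434), with changes of 0.73 in Vhl cells and 1.62 in control cells, and this call was lost in 13 of the alternatives tried. Among ERK targets, Dusp6 and Etv4 also fell less in Vhl cells, and whether that bears on these differences was not tested.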

How the results depend on the processing

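Counts of guidance genes called moved little in the drug table. Leaving out 1 library at a time gave 33 to 34 genes for AZD8330 in Vhl cells, 33 to 35 in control cells, 16 to 20 for Vhl cells with AZD8330, 16 to 19 with DMSO and 5 to 8 for the difference of drug effects; the other settings gave 34 to 35, 34 to 36, 18 to 20, 17 to 19 and 5 to 8. The untreated comparison gave 0 genes in the main setting, with total counts, with both limma settings and with the replicate block, but 4 with DESeq2, 2 without the filter (Ephb3 and Sema4g, where 0.498% of all genes passed) and 4 with both A libraries left out, an alternative chosen after seeing the data; leaving out 1 library gave 0 to 4, with 4 only without Vhl library A. The cause was not tested. The labels do not say that a letter marks a shared culture, so a replicate block was an alternative only. With it the counts were 0 untreated, 19 for Vhl cells with DMSO, 19 with AZD8330, 35 for AZD8330 in control cells, 35 in Vhl cells and 6 for the difference. Of 98 named changes that passed, 88 passed with the same sign in every setting; of 1218 values under alternatives 44 missed the threshold and 0 reversed. Over all genes, total-count scaling moved the share of calls that were higher in Vhl cells with DMSO to 56.6%, against 42.7% with TMM, and the share of positive differences of drug effects to 44%, against 61.1%. Changes of genes under 1 CPM in a group (5 of the 45 in the drug table, 3 in the untreated) rest on few counts.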

Other observations

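Cytoplasmic effectors of guidance receptors, a list of 47 genes of which 43 were tested in the drug table, moved in both directions with AZD8330: 17 rose and 11 fell in Vhl cells (65.1%, against 51.5% of all genes), and 14 rose and 12 fell in control cells (60.5%, against 60.8%), with medians of 0.13 and 0.07 on the log2 scale. Of the 5 collapsin response mediators, which relay semaphorin 3A signals to the cytoskeleton, Dpysl2, Dpysl3, Dpysl4 and Dpysl5 rose in both genotypes, and Crmp1 rose in Vhl cells (log2 0.86, edgeR adjusted p = 0.0339) and did not pass in control cells (0.36, edgeR adjusted p = 0.347). Dpysl3 averaged 911.9 ± 12.6 CPM with AZD8330 and 181.0 ± 9.77 CPM with DMSO in Vhl cells, and 670.4 ± 16.2 and 99.7 ± 3.57 CPM in control cells (SD, n = 3 each). Its log2 changes were 2.33 and 2.75 (edgeR adjusted p = 3.72e-13 and 6.91e-14), and it was higher in Vhl cells with AZD8330 (0.44) and with DMSO (0.86). Dpysl4 rose with AZD8330 by 1.0 and 1.53, and Dpysl5 by 1.12 and 1.42. Between genotypes 11 effectors were higher and 8 lower in Vhl cells with AZD8330 (44.2%, against 30% of all genes), and 7 higher and 8 lower with DMSO (34.9%, against 32.3%). Untreated, 0 of 44 passed by edgeR's quasi-likelihood test. The summed astrocyte and neuronal markers moved with AZD8330 in the same comparisons, and their part in these values was not tested.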
